A study of Saccharomyces cerevisiae with 24 samples.

Results

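The step described here is the change in the transcriptome of budding yeast between the RNA-seq libraries taken at 20 min and at 0 min of a metabolic cycle. The organism was Saccharomyces cerevisiae, strain CEN.PK, a laboratory strain background, grown in minimal medium while its metabolism oscillated. The series holds 24 samples at 12 times between 0 and 260 min, 12 of them RNA-seq and 12 MNase-seq, a nucleosome assay that was not analysed here. Each time had 1 RNA-seq library, so the step rests on 1 library at 20 min and 1 library at 0 min, and it is described without a test. No mutation, drug or added agent is named for any sample, and the 2 libraries differ in time alone as far as the labels go. Genes entered when their mean over the 12 libraries was at least 10 RPKM (reads per kilobase of gene per 1000000 reads), which 5979 of 6562 genes did.

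In the yeast metabolic cycle, dense cultures held at a low and steady supply of sugar consume oxygen in bursts, and the cells of the culture stay in step. The cycle is known for successive waves of transcripts. Genes of ribosome assembly and amino acid synthesis rise with oxygen use, genes of mitochondria and cell division come next, and genes of fatty acid breakdown, storage and stress protection follow while little oxygen is used. Acetyl-CoA, the activated form of acetate, stands at the crossing of these routes, since it comes from ethanol, acetate and fatty acids and feeds the tricarboxylic acid cycle and the glyoxylate cycle.

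At 20 min, 287 genes were at least 2-fold higher than at 0 min (4.80% of the 5979 genes) and 1199 were at least 2-fold lower (20.1%). At 4-fold, 82 genes were higher (1.37%) and 212 lower (3.55%). The higher side was led by genes of fatty acid oxidation, of ethanol and acetate use, and of heat shock and stationary phase. The lower side was led by genes of nitrogen uptake, of amino acid, sulfur and nucleotide synthesis, of the ribosome, and of the tricarboxylic acid and glyoxylate cycles. Differences are given as log2(RPKM + 1) at 20 min minus that at 0 min, which understates the change of genes with few reads.

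The unequal split depended on how the libraries were scaled. With the deposited scaling to library size, the median gene stood at -0.43 on the log2 scale (quartiles -0.87 and -0.03), and 23.5% of genes were higher at 20 min. With median-ratio scaling, which sets the typical gene equal between libraries, the median was -0.03, with 497 genes at least 2-fold higher (8.31%) and 632 at least 2-fold lower (10.6%). The signal itself was distributed differently, taken over genes matched to the annotation, whose lengths are known. The 10 most abundant of these took up 13.1% of it at 20 min, against 6.10% at 0 min. Of the 287 genes on the higher side, the 255 matched made up 33.9% of this signal in the 20 min library and 8.12% in the 0 min library. Of the 1199 on the lower side, the 1048 matched made up 10.1% in the 20 min library and 34.2% in the 0 min library. Each library pools many cells, so fewer cells that use a gene and less of its RNA per cell cannot be told apart, and a change in total RNA per cell cannot be seen in either scaling. Gene groups are therefore read below against the median of -0.43, with the median-ratio value beside them.

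The depth, as estimated from the smallest steps between the deposited values, was about 4365500 reads at 20 min and 5961000 at 0 min. These were the lowest and the highest estimates of the 12 libraries, though that of 140 min, 4398000, was close to the lowest. The totals are approximate. The score of how well low values fell on whole bases was 0.36 for the total chosen at 0 min, against 0.31 for the next best total. At 20 min it was 0.45 against 0.29. The median gene had 218 reads at 20 min and 406 at 0 min. A gene of 1 kilobase at the minimum of 10 RPKM had 43.7 reads at 20 min and 59.6 at 0 min, which gives a counting error of 0.22 and 0.19 on the log2 scale. As there is no replicate, the scatter between libraries was judged from neighbouring times. The quietest pair, 200 min against 180 min, had 0.167% of genes past 2-fold and an SD of 0.24 across genes, against 24.9% and an SD of 0.87 for 20 min against 0 min. That SD holds both noise and any real change between those times, and the spread between cultures is not known.

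**Figure D1:**
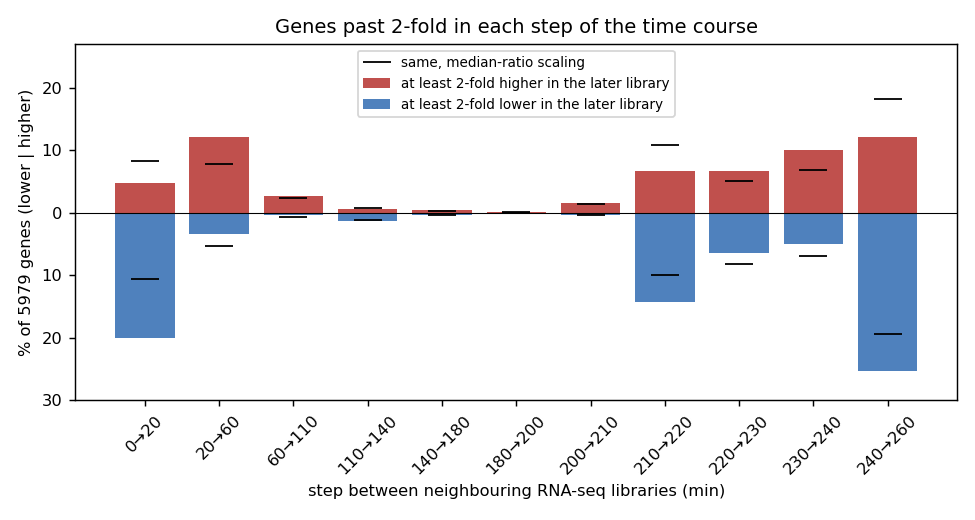
Percent of the 5979 genes at least 2-fold higher (upward bars) or lower (downward bars) in the later library of each neighbouring pair, with black marks for median-ratio scaling. The step from 0 to 20 min, with 4.80% higher and 20.1% lower, is exceeded in total only by that from 240 to 260 min.

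Across the 11 steps, the share past 2-fold in either direction was 24.9% from 0 to 20 min, 15.5% from 20 to 60 min and 3.16% from 60 to 110 min. It was 1.91%, 0.786%, 0.167% and 1.86% in the 4 steps from 110 to 210 min. It was 20.9%, 13.1% and 15.0% in the 3 steps from 210 to 240 min and 37.4% from 240 to 260 min. The intervals are unequal, running from 10 to 50 min. Under median-ratio scaling the step from 0 to 20 min had 18.9% of genes past 2-fold, against 20.9% from 210 to 220 min and 37.5% from 240 to 260 min, so that it ranked the third and not the second of the 11.

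**Figure D2:**
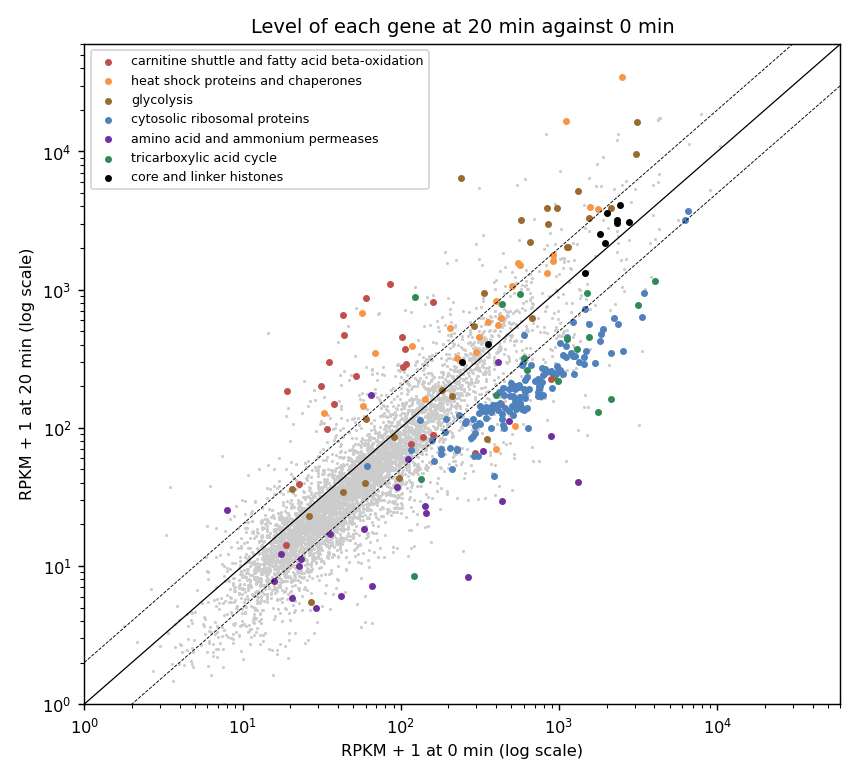
Level of each of the 5979 genes at 20 min (vertical) against 0 min (horizontal) in RPKM + 1 on log axes, with 7 gene lists in colour. The solid line marks equal levels and the dashed lines mark 2-fold. Beta-oxidation genes lie above the upper dashed line for 15 of 23 members, and ribosomal protein genes lie below the lower one for 128 of 138.

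Genes of the breakdown of fatty acids in the peroxisome stood higher at 20 min as a block. Of 23 genes of beta-oxidation and the carnitine shuttle, 15 were at least 2-fold higher and 3 at least 2-fold lower, with a median of 1.79 (2.21 under median-ratio scaling, with 16 higher and 3 lower). FOX2, the multifunctional enzyme of the pathway, had 658 RPKM at 20 min and 41.9 at 0 min, a difference of 3.94. POX1, the acyl-CoA oxidase that opens the pathway, had 871 RPKM at 20 min and 59.5 at 0 min (3.85). POT1, the thiolase that closes it, had 467 RPKM at 20 min and 42.8 at 0 min (3.42). CTA1, the peroxisomal catalase that removes the hydrogen peroxide made by the oxidase, had 1104 RPKM at 20 min and 84.2 at 0 min (3.70).

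The accessory enzymes of unsaturated fatty acids showed the same direction. DCI1 had 183 RPKM at 20 min and 18.2 at 0 min, SPS19, a dienoyl-CoA reductase, had 449.8 at 20 min and 101 at 0 min, and IDP3, the peroxisomal isocitrate dehydrogenase that supplies NADPH to that reductase, had 199 at 20 min and 30.4 at 0 min. The acyl-CoA synthetases FAA2, FAA1 and FAA4, which activate fatty acids, differed by 3.11, 1.41 and 1.42. PXA1 and PXA2, the pair of transporter subunits that bring acyl-CoA into the peroxisome, differed by 1.97 and 1.51. FAT3, a protein of fatty acid uptake outside the list, had 541 RPKM at 20 min and 45.1 at 0 min (3.56). PIP2 and OAF1, the transcription factors of the response to oleate, lay within 2-fold at 0.80 and -0.40. ADR1, an activator of genes of fatty acid oxidation and ethanol use that is held in the glyoxylate and acetate list, had 60.6 RPKM at 20 min and 213 at 0 min (-1.80).

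The carnitine branch was split. CAT2, the carnitine acetyltransferase of peroxisomes and mitochondria, had 811 RPKM at 20 min and 159 at 0 min (2.34). YAT1 and YAT2, its counterparts elsewhere in the cell, were lower, with 148 RPKM at 20 min against 429 at 0 min for YAT1 and 223 at 20 min against 885 at 0 min for YAT2. CRC1, the mitochondrial carrier of acetylcarnitine, had 64.2 RPKM at 20 min and 294 at 0 min (-2.18). The peroxins, which build the peroxisome, lay nearer the median than the enzymes it holds. Only 1 of 28 was at least 2-fold higher, PEX11, the protein of peroxisome growth and division, with 554 RPKM at 20 min and 218 at 0 min. PEX21 and PEX19 were at least 2-fold lower. The median of the peroxins was -0.15, and 0.26 under median-ratio scaling, so its sign turned with the scaling.

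The largest difference on the higher side among genes with a symbol was that of ADH2 (YMR303C, chromosome XIII, 873291 to 874337, build R64), the alcohol dehydrogenase that oxidises ethanol and is known for its repression by glucose. It had 6434 RPKM at 20 min and 241 at 0 min, a difference of 4.73. ADH1, the dehydrogenase that makes ethanol, had 2034 RPKM at 20 min and 1118 at 0 min (0.86), and the mitochondrial ADH3 had 232 at 20 min and 930.03 at 0 min. ALD4, the main mitochondrial acetaldehyde dehydrogenase, was the most abundant gene at 20 min by share of signal, with 12053 RPKM against 2311 at 0 min (2.38). ACS1, the acetyl-CoA synthetase of glucose-limited cells, had 3244 RPKM at 20 min and 693 at 0 min (2.23). ADY2, an acetate permease, had 2495 RPKM at 20 min and 328 at 0 min (2.92), and its relative ATO3 differed by 2.05.

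The glyoxylate cycle, which turns acetyl units into sugar precursors, lay on the other side. In the list of the glyoxylate cycle, gluconeogenesis and acetate use, 6 of 25 genes were at least 2-fold higher and 12 at least 2-fold lower, with a median of -0.97 (-0.57 under median-ratio scaling, with 8 higher and 12 lower). All 6 higher members are the permeases ADY2 and ATO3, the synthetase ACS1 and the aldehyde dehydrogenases ALD2, ALD3 and ALD4. ICL1, isocitrate lyase, had 87.7 RPKM at 20 min and 1492 at 0 min (-4.07). MLS1, malate synthase, had 139.6 RPKM at 20 min and 1439 at 0 min (-3.36). CIT2, the citrate synthase that feeds this cycle, had 358 RPKM at 20 min and 3365 at 0 min (-3.23). SFC1, the mitochondrial carrier that exchanges succinate for fumarate, had 141 RPKM at 20 min and 1529 at 0 min (-3.43). The gluconeogenic genes PCK1 and FBP1 had lower levels, 30.2 and 34.1 RPKM at 20 min against 101 and 92.7 at 0 min, and differed by -1.70 and -1.42.

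The tricarboxylic acid cycle was lower at 20 min in most of its genes. Of 17 genes, 12 were at least 2-fold lower and 1 at least 2-fold higher, with a median of -1.67 (-1.27 under median-ratio scaling, with 9 lower and 3 higher). IDH1 and IDH2, the 2 subunits of the NAD-dependent isocitrate dehydrogenase, had 130.2 and 161 RPKM at 20 min, against 1750 and 2120.3 at 0 min, differences of -3.74 and -3.71. ACO1, the aconitase, had 779 RPKM at 20 min and 3141 at 0 min, and CIT1, the main citrate synthase, had 1154 at 20 min and 4038 at 0 min. LSC1 and LSC2, the subunits of succinyl-CoA ligase, stood above 0 at 0.85 and 0.72. The 1 gene on the higher side was CIT3, the minor mitochondrial citrate synthase, with 883 RPKM at 20 min and 123 at 0 min (2.84).

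The respiratory chain and ATP synthase were lower too, within a narrower range. Of 42 genes, 23 were at least 2-fold lower and 2 at least 2-fold higher, with a median of -1.04; under median-ratio scaling the median was -0.63, with 6 lower and 3 higher, so most of these calls rested on the scaling. NDE1, the external NADH dehydrogenase, had 258 RPKM at 20 min and 1093 at 0 min (-2.08). CYC1, the main cytochrome c, had 468 RPKM at 20 min and 1868 at 0 min (-1.99). HAP4, the regulatory subunit of the activator of respiratory genes, had 239.6 RPKM at 20 min and 642 at 0 min (-1.42). The higher members were NDE2 (1.61) and CYC7 (1.15), the less abundant counterparts of NDE1 and CYC1.

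Heat shock and stationary-phase genes were on the higher side. Of 26 heat shock proteins and chaperones, 14 were at least 2-fold higher and 2 at least 2-fold lower, with a median of 1.06 (1.47 under median-ratio scaling, with 18 higher). HSP12, a small membrane-protecting protein, had 34337 RPKM at 20 min and 2506 at 0 min (3.78). HSP26, a small heat shock protein that holds unfolded proteins, had 16752 RPKM at 20 min and 1111 at 0 min (3.91). SSA3 and SSA4, the stress-inducible Hsp70 genes, differed by 3.57 and 2.34, against 1.12 and 0.94 for SSA1 and SSA2, the Hsp70 genes that growing cells use. The 2 lower members were SSB1 and SSB2, near-identical Hsp70 genes whose proteins work on the ribosome, with 69.5 and 101 RPKM at 20 min, against 396 and 526 at 0 min.

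Of 25 stationary-phase and respiratory-growth genes, 11 were at least 2-fold higher and 0 lower, with a median of 0.87 (1.29 under median-ratio scaling, with 16 higher). SIP18, a hydrophilic protein of dehydration tolerance, had 5396 RPKM at 20 min and 312 at 0 min (4.11). SPG1 and SPG4, genes needed for survival in stationary phase, had 1873 and 7274 RPKM at 20 min, against 189 and 1009 at 0 min. RGI2 had 5729 RPKM at 20 min and 544 at 0 min (3.39), while its paralog RGI1 had 753 at 20 min and 676 at 0 min (0.16). SNZ1 and SNO1, a divergent pair of vitamin B6 synthesis, lay at -0.93 and -0.92. TIP1 and SED1, wall proteins induced by stress, had 13453 and 8099 RPKM at 20 min, against 829.7 and 1746 at 0 min.

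Oxidant defence was divided by enzyme. Of 27 genes, 6 were at least 2-fold higher and 1 at least 2-fold lower, with a median of 0.67 (1.08 under median-ratio scaling, with 15 higher and 0 lower). Beside CTA1, the cytosolic catalase CTT1 had 120.1 RPKM at 20 min and 17.7 at 0 min (2.70), and the peroxiredoxin AHP1 had 2301 at 20 min and 558 at 0 min (2.04). The superoxide dismutases SOD1 and SOD2 lay within 2-fold at 0.60 and 0.07. GSH1, which makes the first intermediate of glutathione, had 27.8 RPKM at 20 min and 68.5 at 0 min (-1.27). YHB1, the flavohemoglobin that removes nitric oxide, lies outside the list and was among the 15 lowest genes, with 96.0 RPKM at 20 min and 1321 at 0 min (-3.77).

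Glycolysis was higher in many genes of its later reactions and mixed at its entry. The list also holds ADH2, the ethanol-oxidising enzyme described above, which is its highest member. Of 28 genes, 11 were at least 2-fold higher and 4 at least 2-fold lower, with a median of 0.87 (1.28 under median-ratio scaling, with 17 higher and 3 lower). TDH3, the main glyceraldehyde 3-phosphate dehydrogenase, had 16227 RPKM at 20 min and 3113 at 0 min (2.38). PGK1, phosphoglycerate kinase, had 5159 RPKM at 20 min and 1324 at 0 min (1.96), and ENO1, an enolase, had 3184 at 20 min and 576 at 0 min (2.46). FBA1, the aldolase, differed by 1.63 and CDC19, the pyruvate kinase of glucose growth, by 1.50. PYK2, the other pyruvate kinase, went the other way (-1.18, and -0.77 under median-ratio scaling). PFK1 and PFK2, the subunits of phosphofructokinase, lay at -0.32 and 0.04. HXK2, the hexokinase of glucose-rich growth, had 82.1 RPKM at 20 min and 347 at 0 min (-2.07), whereas HXK1 had 3908 at 20 min and 2133 at 0 min. PFK27, which makes the activator of phosphofructokinase, had 4.47 RPKM at 20 min and 26.0 at 0 min (-2.30).

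Hexose carriers were higher in part, and storage genes lay mostly within 2-fold. Of 15 hexose transporters and glucose sensors with enough signal, 5 were at least 2-fold higher and 0 lower, under either scaling, and all 5 are transporters: HXT2, HXT3, HXT4, HXT6 and HXT7. The median of the list was 0.28 (0.66 under median-ratio scaling). HXT2 had 379 RPKM at 20 min and 104 at 0 min (1.86). HXT6 and HXT7 are near-identical in sequence, so reads may be split between them. The maltose genes MAL11 and MAL12 had 1039 and 889.6 RPKM at 20 min, against 122 and 145 at 0 min. Of 20 genes of glycogen and trehalose, the storage carbohydrates of the cell, only GPH1, glycogen phosphorylase, passed 2-fold, with 415 RPKM at 20 min and 159 at 0 min, and the median of the list was 0.02 (0.43 under median-ratio scaling, with 4 higher).

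**Figure D3:**
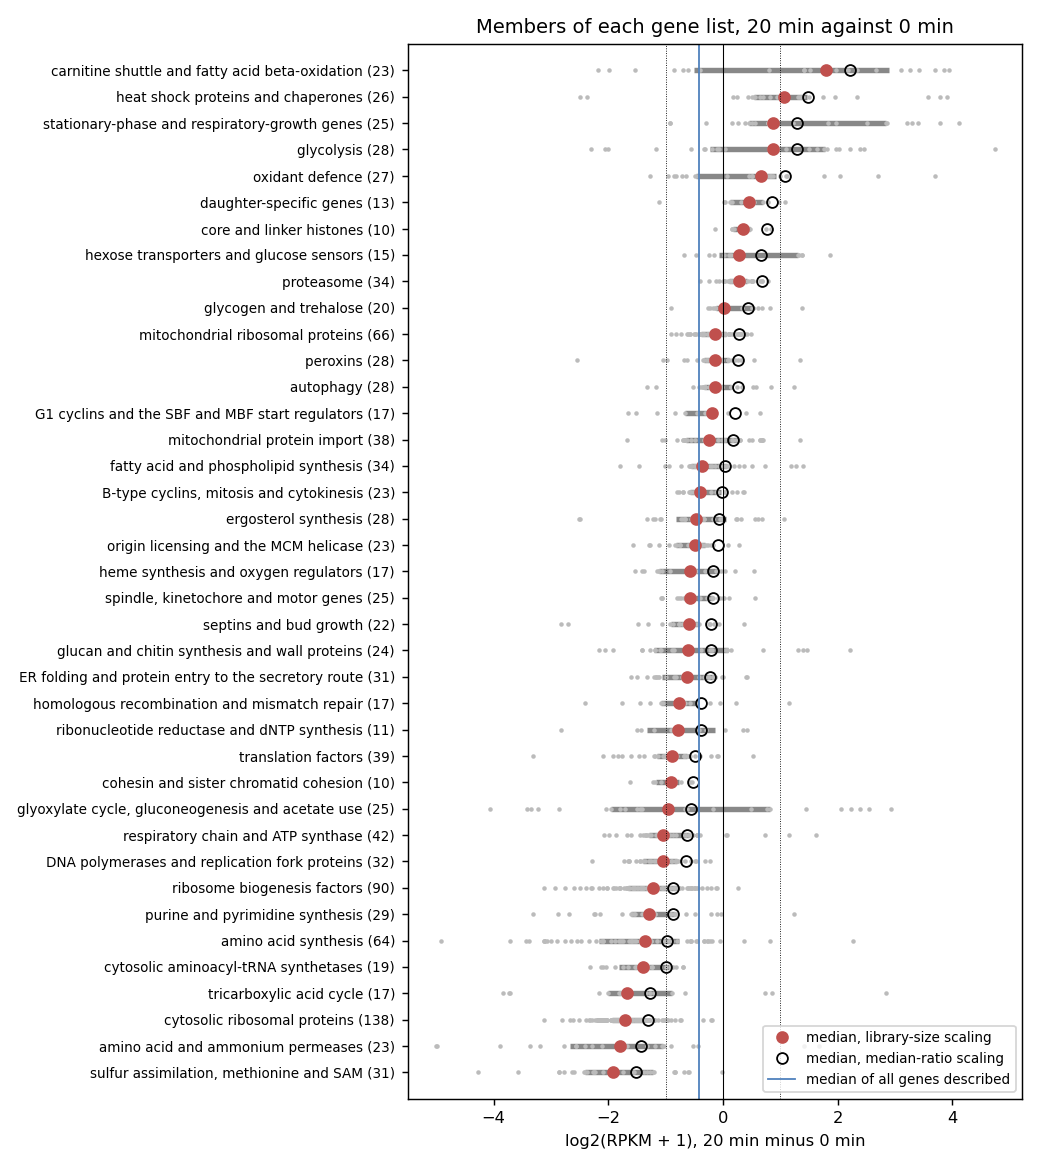
Log2 difference between 20 min and 0 min of every member (small points) of 39 gene lists, with quartiles (grey bars), medians under library-size scaling (filled) and under median-ratio scaling (open), and the number of members in brackets. The blue line marks the median of all genes, -0.43; list medians run from 1.79 for beta-oxidation to -1.92 for sulfur assimilation, and 8 lists change sign with the scaling or under quantile normalization.

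Nitrogen uptake held the lowest values of the step. Of 23 amino acid and ammonium permeases, 18 were at least 2-fold lower and 2 at least 2-fold higher, with a median of -1.79 (-1.43 under median-ratio scaling, with 13 lower and 2 higher). MEP2, the high-affinity ammonium permease that also serves as a nitrogen sensor, had 39.6 RPKM at 20 min and 1312 at 0 min, a difference of -5.01. AGP1, a broad amino acid permease, had 7.28 RPKM at 20 min and 263 at 0 min (-5.00). MEP1 had 28.7 RPKM at 20 min and 437 at 0 min (-3.89), and GAP1, the general amino acid permease of nitrogen-poor cells, had 85.7 at 20 min and 889.7 at 0 min (-3.36). MEP3, the low-affinity ammonium permease, was on the other side, with 172 RPKM at 20 min and 63.8 at 0 min (1.42). ALP1, an arginine permease, was also higher (1.67), at 24.5 RPKM at 20 min and 7.02 at 0 min.

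Assimilation of that nitrogen followed uptake in direction. GDH1, the NADP-dependent glutamate dehydrogenase that fixes ammonium, had 104 RPKM at 20 min and 3193 at 0 min (-4.93). GLN1, glutamine synthetase, had 172 RPKM at 20 min and 1456 at 0 min (-3.08). GDH2, the NAD-dependent dehydrogenase that runs in the direction of breakdown, had 207 RPKM at 20 min and 163 at 0 min (0.35). Among 64 genes of amino acid synthesis, 44 were at least 2-fold lower and 1 at least 2-fold higher, with a median of -1.37 (-0.97 under median-ratio scaling, with 31 lower and 2 higher). Lysine synthesis held several of the lowest members. LYS20, homocitrate synthase, had 56.3 RPKM at 20 min and 750.3 at 0 min (-3.71), and LYS4, LYS12 and LYS2 differed by -3.38, -3.12 and -3.10. ARO9, an aromatic aminotransferase of amino acid breakdown, was the 1 higher member, with 201 RPKM at 20 min and 41.0 at 0 min (2.27).

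Sulfur assimilation had the lowest median of the 39 lists under library-size and median-ratio scaling, while under quantile normalization it stood at -1.34 and the cytosolic ribosomal proteins at -1.50. Of 31 genes, 24 were at least 2-fold lower and 0 higher, with a median of -1.92 (-1.52 under median-ratio scaling, with 19 lower). SAM1, an S-adenosylmethionine synthetase, had 11.8 RPKM at 20 min and 247 at 0 min (-4.27). MET6, methionine synthase, had 56.6 RPKM at 20 min and 684 at 0 min (-3.57). The sulfate reduction genes MET3, MET14, MET16, MET5 and MET10 lay between -2.87 and -2.40, and the sulfate carriers SUL1 and SUL2 at -2.37 and -2.23. Among the regulators, MET28 and MET30 lay at -1.74 and -1.22, and MET4, MET32 and MET31 within 2-fold at -0.59, -0.84 and -0.01.

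Of 29 genes of purine and pyrimidine synthesis, 18 were at least 2-fold lower and 1 at least 2-fold higher, with a median of -1.29 (-0.88 under median-ratio scaling, with 12 lower and 1 higher). The largest differences were in guanine nucleotide synthesis. GUA1, GMP synthase, had 4.32 RPKM at 20 min and 52.1 at 0 min (-3.32), and IMD3, an IMP dehydrogenase, had 18.3 at 20 min and 140.3 at 0 min (-2.87). URA10, the minor orotate phosphoribosyltransferase, had 96.2 RPKM at 20 min and 40.3 at 0 min (1.24), against 173 at 20 min and 242 at 0 min for its main counterpart URA5 (-0.49).

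Genes of the cytosolic ribosome were lower nearly throughout. Of 138 ribosomal protein genes, 128 were at least 2-fold lower and 0 higher, with a median of -1.71 (-1.30 under median-ratio scaling, with 101 lower). The lowest was RPS26B, with 43.5 RPKM at 20 min and 386 at 0 min (-3.12). RPP2B, a protein of the acidic stalk of the large subunit, had 358 RPKM at 20 min and 2519 at 0 min (-2.81). The highest was RPS27A, with 113 RPKM at 20 min and 130.4 at 0 min (-0.20). Most of these genes are pairs of near-identical copies, so the split of reads within a pair is uncertain.

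Ribosome assembly genes were lower from a level that was already small. Of 90 factors, 57 were at least 2-fold lower and 0 higher, with a median of -1.22 (-0.87 under median-ratio scaling, with 41 lower). GAR1, a core protein of the small nucleolar RNPs that modify ribosomal RNA, had 12.9 RPKM at 20 min and 119 at 0 min (-3.12), and later in the course 1129.9 at 230 min and 459 at 240 min. NOP13 had 2.91 RPKM at 20 min and 28.8 at 0 min (-2.93). NSR1, a nucleolar protein of early ribosomal RNA processing, had 4.53 RPKM at 20 min and 12.7 at 0 min, against 1689 at 220 min. Values near 3 RPKM at 20 min rest on few reads and the pseudocount of 1 RPKM lowers their difference.

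The machinery that charges and uses transfer RNA was also lower. Of 19 cytosolic aminoacyl-tRNA synthetases, 13 were at least 2-fold lower and 0 higher, with a median of -1.40 (-0.99 under median-ratio scaling, with 9 lower). KRS1, the lysine enzyme, had 9.68 RPKM at 20 min and 52.4 at 0 min (-2.32), and ALA1, the alanine enzyme, had 32.1 at 20 min and 144 at 0 min (-2.13). Of 39 translation factors, 15 were at least 2-fold lower and 0 higher, with a median of -0.90 (-0.49 under median-ratio scaling, with 7 lower). YEF3, the fungal elongation factor 3, had 29.7 RPKM at 20 min and 306 at 0 min (-3.32). TEF1 and TEF2, the near-identical genes of elongation factor 1 alpha, lay at -0.81 and -0.64, and HYP2, the factor eIF5A, at 0.52.

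Several pathways held a gene on each side of the step because their isozymes parted. In 57 pairs of isozymes or paralogs, both members passed the filter. Of these, 11 pairs were at least 2-fold apart from 0 min in opposite directions, and in 22 the members differed by at least 4-fold. Some genes stand in more than 1 pair, as ALD6 does with ALD4 and with ALD3, so the pairs are not separate measurements. Over all genes, 4.80% were at least 2-fold higher and 20.1% lower. TKL2, the minor transketolase, had 419.6 RPKM at 20 min and 39.3 at 0 min (3.38), whereas TKL1, the main one, had 65.1 at 20 min and 424 at 0 min (-2.68). ALD4 (2.38) and ALD3 (2.55) stood against ALD6 (-2.04), the cytosolic acetaldehyde dehydrogenase, which had 764 RPKM at 20 min and 3146 at 0 min. ACS1 (2.23) stood against ACS2 (-1.45), GND2 (1.96) against GND1 (-1.24), and CIT3 (2.84) against CIT1 (-1.81).

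The other opposed pairs were IDP3 and IDP1 (2.67 and -1.02), PYK2 and CDC19 (-1.18 and 1.50), CYC7 and CYC1 (1.15 and -1.99), NDE2 and NDE1 (1.61 and -2.08), and ARO9 and ARO8 (2.27 and -1.60). Under median-ratio scaling, IDP1 (-0.61), GND1 (-0.83) and PYK2 (-0.77) no longer passed 2-fold, and their partners did. In the branched-chain pair, the cytosolic aminotransferase BAT2 had 1065 RPKM at 20 min and 605 at 0 min, and the mitochondrial BAT1 had 53.6 at 20 min and 369 at 0 min (-2.76). The pairs of TDH, PYC and trehalase genes kept to 1 direction or stayed within 2-fold, with TDH1 and TDH3 at 2.21 and 2.38. The pairs were chosen after values of these data were seen.

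Among cell division genes, DNA synthesis was lower and mitosis lay near the median of all genes. Of 32 genes of DNA polymerases and the replication fork, 18 were at least 2-fold lower and 0 higher, with a median of -1.05 (-0.65 under median-ratio scaling, with 9 lower). POL1, the catalytic subunit of polymerase alpha, had 7.04 RPKM at 20 min and 38.4 at 0 min (-2.29). POL30, the sliding clamp PCNA, had 64.6 RPKM at 20 min and 217 at 0 min (-1.73). RNR1, the large subunit of ribonucleotide reductase, had 28.5 RPKM at 20 min and 82.9 at 0 min (-1.51), and later in the course 323 at 230 min, and the small subunits RNR2 and RNR4 lay at -0.42 and 0.02. MCD1, the cleavable cohesin subunit, had 21.7 RPKM at 20 min and 68.8 at 0 min (-1.62).

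Of 10 cohesin genes, 4 were at least 2-fold lower and 0 higher (1 under median-ratio scaling), and of 17 genes of recombination and mismatch repair, 6 were lower and 1 higher (3 and 1). Of 23 origin licensing genes, 4 were lower and 0 higher, with MCM3 the lowest (-1.58). Their median was -0.48 (-0.09 with 1 lower under median-ratio scaling, and 0.03 under quantile normalization). Over all genes 20.1% were lower (10.6% under median-ratio scaling), so the origin licensing genes did not stand apart in this count. Under median-ratio scaling the cohesin genes, with 1 of 10 lower, did not stand apart either. Of 17 G1 cyclins and start regulators, 3 were lower and 0 higher (2 and 1 under median-ratio scaling). Their share of lower genes was near that of all genes. The 3 were CLN2, CLN3 and CLB5 (a B-type cyclin of S phase), at -1.51, -1.15 and -1.65, while CLN1 lay at 0.40. CLN3 lay within 2-fold at -0.76 under median-ratio scaling. The median of the 17 G1 regulators was -0.19, and 0.21 under median-ratio scaling. Of 23 genes of B-type cyclins, mitosis and cytokinesis, 0 passed 2-fold in either direction under either scaling, with a median of -0.40 (-0.02 under median-ratio scaling and 0.08 under quantile normalization). Of 25 spindle, kinetochore and motor genes, 3 were lower, CSE4, TUB4 and SPC24, and 0 were under median-ratio scaling.

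Histone genes stayed high across the step. None of the 10 core, variant and linker histone genes passed 2-fold, with a median of 0.35, and 2 passed it under median-ratio scaling, HTA1 and HTB1 (median 0.77). HTA1 had 3570.2 RPKM at 20 min and 2009 at 0 min, and HTB1 had 4076 at 20 min and 2413 at 0 min. HTA2, of the other H2A and H2B locus, had 1327 RPKM at 20 min and 1468 at 0 min (-0.15, and 0.27 under median-ratio scaling). From 20 to 60 min, 8 of the 10 were at least 2-fold lower in turn (3.36% of all genes were), a difference that shares the library of 20 min. Of 13 daughter-specific genes, which act in the new cell after division, EGT2 was higher (1.09) and PRY3 lower (-1.12), with a median of 0.46 (4 higher and 0 lower under median-ratio scaling).

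Bud growth and the cell wall were mixed. Of 22 septin and bud growth genes, 5 were at least 2-fold lower (3 under median-ratio scaling) and 0 higher. The share of lower genes was near that of all genes, 20.1% (10.6% under median-ratio scaling). The lowest was GIC2, an effector of Cdc42, with 12.4 RPKM at 20 min and 94.2 at 0 min (-2.83). Next was RSR1, the bud site GTPase, with 12.8 at 20 min and 88.9 at 0 min (-2.71). The 7 septin and Cdc42 genes CDC3, CDC10, CDC11, CDC12, SHS1, CDC42 and CDC24 lay between -0.76 and -0.24. Of 24 genes of glucan and chitin synthesis and wall proteins, 10 were lower and 4 higher (5 and 5 under median-ratio scaling). The lower ones included FKS1, the glucan synthase, with 28.6 RPKM at 20 min and 131 at 0 min, and the 4 higher ones were the structural wall proteins SED1, CWP1, PIR1 and PIR3.

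Membrane, secretory and heme genes lay mostly within 2-fold, as did most of all genes. Over all genes, 4.80% were higher and 20.1% lower (8.31% and 10.6% under median-ratio scaling). The heme list held a larger share of lower genes than that under library-size scaling. Of 28 genes of ergosterol synthesis, 7 were at least 2-fold lower, led by ERG4 and ERG3 (-2.52 and -2.50), and 1 was higher, ERG28 (2 lower and 3 higher under median-ratio scaling). Of 34 genes of fatty acid and phospholipid synthesis, 3 were lower and 3 higher (2 and 4 under median-ratio scaling). The higher ones were GPT2 (1.39), FAS1 (1.27) and OLE1 (1.18), and FAS2, the partner subunit of FAS1, lay at 0.00. The median of that list was -0.36, and 0.04 under median-ratio scaling. Of 31 genes of folding and entry in the endoplasmic reticulum, 8 were lower and 0 higher (2 lower under median-ratio scaling), and of 17 genes of heme synthesis and oxygen regulation, 7 were lower and 0 higher (2 under median-ratio scaling).

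Some large groups lay almost wholly within 2-fold. None of 34 proteasome genes passed 2-fold, with a median of 0.27 (0.68 under median-ratio scaling, with 4 higher). None of 66 mitochondrial ribosomal protein genes passed it under either scaling, with a median of -0.14 that turned to 0.27 under median-ratio scaling, against -1.71 for the cytosolic ribosome. Of 38 genes of mitochondrial import, 1 was higher, the chaperonin HSP10 with 3997 RPKM at 20 min and 1577 at 0 min, and 3 were lower (6 and 1 under median-ratio scaling), with a median of -0.24 that turned to 0.17. The lowest of those 3, TIM11 (-1.68), is a subunit of ATP synthase by present naming. Of 28 autophagy genes, 1 was higher and 2 were lower, with a median of -0.15 (0.25). ACT1, actin, had 1628 RPKM at 20 min and 1243 at 0 min (0.39).

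Over the whole time course, the genes on the higher side mostly had their lowest levels between 220 and 240 min. Their lowest value fell in the 230 min library for 166 of the 287 (57.8%, against 16.0% of all 5979 genes), in that of 240 min for 39 (13.6%, against 1.76%) and in that of 0 min for 18 (6.27%, against 1.30%). The 220 min library was the lowest for 56 (19.5%), a share near the 21.9% of all genes. The 20 min library was the highest of the 12 for 117 (40.8%, against 5.57%), the 260 min library for 67 (23.3%, against 16.7%) and the 60 min library for 30 (10.5%, against 3.36%). At 60 min, 188 of the 287 were still at least 2-fold above 0 min (5.29% of all genes were). From 20 to 60 min, 27 had come back at least 2-fold (3.36% of all genes were at least 2-fold lower). These comparisons share libraries with the step. ADH2 had 241 RPKM at 0 min, 6434 at 20 min and 5716 at 60 min, and was at 89.6 at 230 min. EGO4, a gene of a small protein, was among the 27, with 606 RPKM at 0 min, 6290.4 at 20 min and 1249 at 60 min. HSP10, SPI1, GPH1, OLE1 and CAT2 were others.

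The genes on the lower side mostly had their highest levels in those same libraries, where many of all genes also had theirs. The highest of the 12 libraries was 230 min for 418 of the 1199 genes (34.9%, against 16.4% of all 5979 genes), 220 min for 367 (30.6%, against 17.9%), 240 min for 186 (15.5%, against 11.0%) and 0 min for 162 (13.5%, against 11.1%). Their lowest value fell in the 20 min library for 664 (55.4%, against 26.9%) and in the 260 min library for 332 (27.7%, against 20.3%). At 60 min, 487 of the 1199 were at least 2-fold above 20 min (12.1% of all genes were) and 330 were still at least 2-fold below 0 min (9.52% of all genes). The levels at 20 and 0 min chose the genes of both sides, so these counts are a description. GDH1 had 3193 RPKM at 0 min, 104 at 20 min and 732 at 60 min. IDH1 had 1750 RPKM at 0 min, 130.2 at 20 min, 157 at 60 min and no more than 214 until 210 min.

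**Figure D4:**
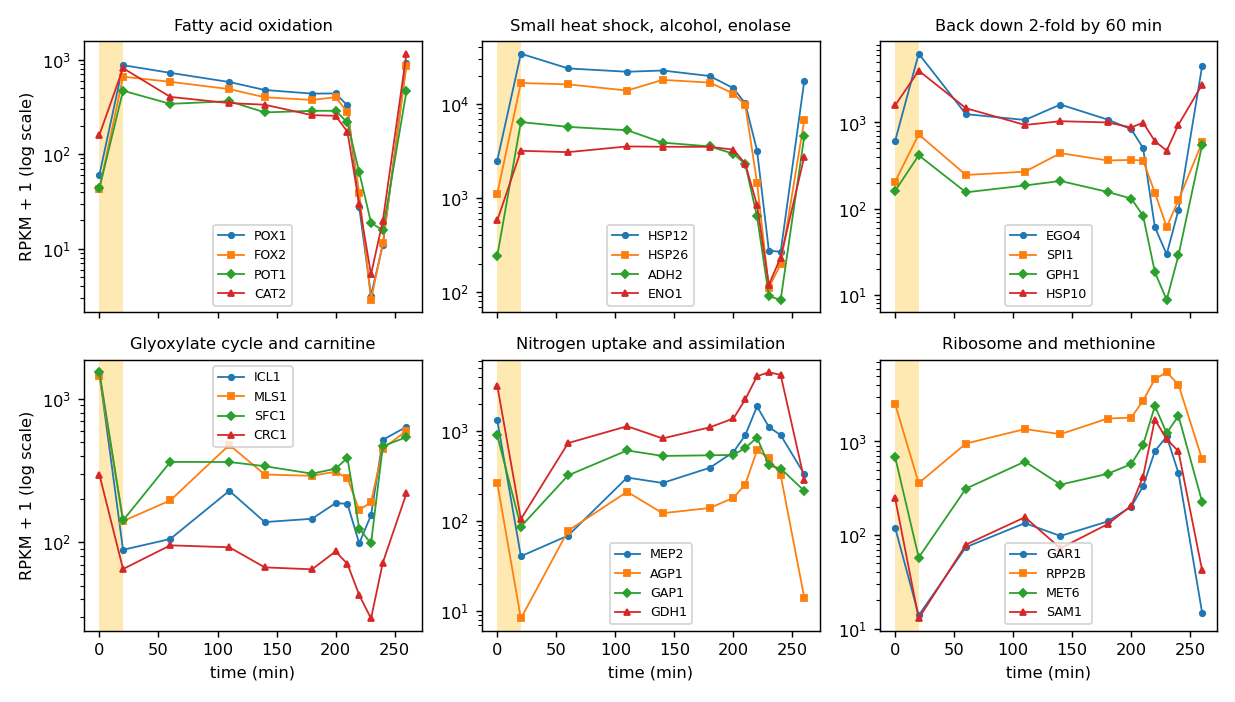
Levels (RPKM + 1, log axis) of 24 genes in the 12 RNA-seq libraries against time in minutes, with the step from 0 to 20 min shaded. ADH2 is still at 2297 RPKM at 210 min and is at 89.6 at 230 min, EGO4, SPI1 and HSP10 have their highest library at 20 min and GPH1 at 260 min, and ICL1, MLS1 and SFC1 have their highest library at 0 min.

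The step has a near counterpart later in the course. From 240 to 260 min, a pair of libraries that shares none with the step from 0 to 20 min, 720 genes were at least 2-fold higher (12.0%) and 1515 lower (25.3%). Of the 287 genes higher at 20 min than at 0 min, 244 were also higher at 260 min than at 240 min, which is 85.0% of the 287 and 33.9% of the 720. Of the 1199 lower genes, 827 were lower in both, 69.0% of the 1199 and 54.6% of the 1515. Across the 5979 genes, the differences had a Pearson correlation of 0.73 and a Spearman correlation of 0.68, given as a description, since genes are not independent and the pairs share gene length and base composition. Levels at 20 min were most like those at 260 min (Pearson 0.96 across genes) and then 60 min (0.94). Levels at 0 min were about equally like those at 240, 60 and 260 min (0.90 each). For 4122 of the 5979 genes, and for 251 of the 287 and 948 of the 1199, the level at 0 min lay between the levels at 240 and 260 min.

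The later step was larger in the same direction for many lists, smaller for others and opposite in sign for some. The median of all genes was -0.43 from 0 to 20 min and -0.29 from 240 to 260 min, under library-size scaling, which is used for all values of this paragraph. Ribosome biogenesis had a median of -1.22 from 0 to 20 min and -3.96 from 240 to 260 min, and stationary-phase genes 0.87 and 2.88. Glycogen and trehalose genes had a median of 0.02 and 1 of 20 higher from 0 to 20 min, against 1.84 and 15 of 20 higher from 240 to 260 min. The tricarboxylic acid cycle had a median of -1.67 with 12 of 17 lower from 0 to 20 min, against -0.10 with 3 lower and 3 higher from 240 to 260 min. The glyoxylate and acetate list had a median of -0.97 from 0 to 20 min and 0.91 from 240 to 260 min. ICL1, MLS1 and SFC1, which stood at -4.07, -3.36 and -3.43 in the step from 0 to 20 min, differed by 0.30, 0.41 and 0.21 from 240 to 260 min. Mitochondrial ribosomal protein genes had a median of 0.76 with 14 of 66 higher in the later step. With 1 library at each of the 4 times, none of these contrasts has a test.

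**Figure D5:**
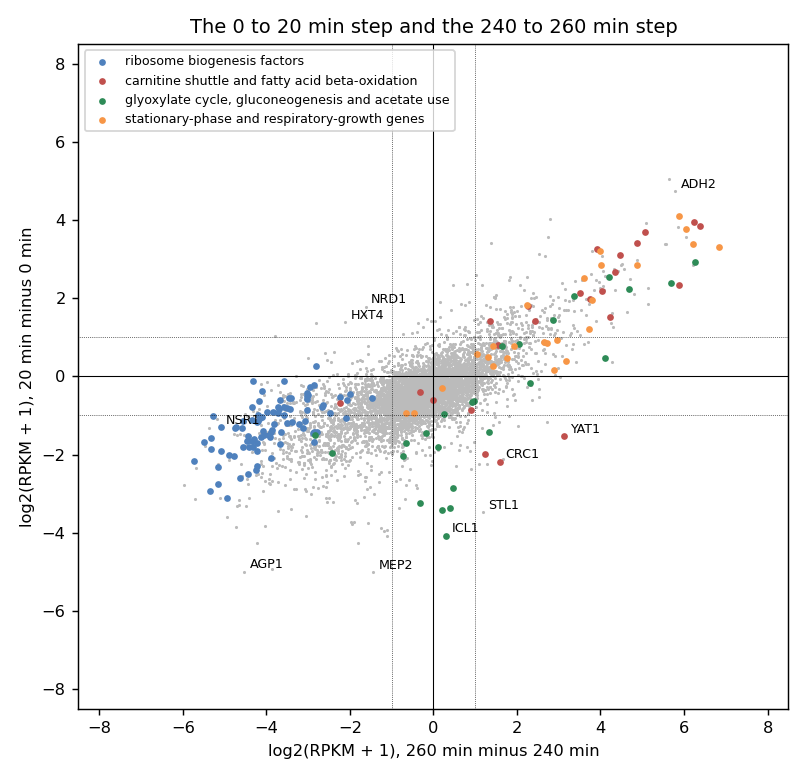
Log2 difference of each of the 5979 genes from 0 to 20 min (vertical) against that from 240 to 260 min (horizontal), with 4 lists in colour and dotted lines at 2-fold. Of the genes past 2-fold in the first of these steps, 244 higher and 827 lower passed it in the same direction in the later one; ICL1, STL1, YAT1 and CRC1 lie below the axis on its right side.

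A small set crossed between the steps. Higher at 20 min than at 0 min and lower at 260 min than at 240 min were 5 genes: NRD1, HRP1, HXT4, YLR222C-A and YDL062W. NRD1 and HRP1 encode proteins that bind nascent transcripts and end or process them. NRD1 had 143 RPKM at 20 min and 40.9 at 0 min, and 31.5 at 260 min against 99.0 at 240 min. HRP1 had 286 RPKM at 20 min and 95.1 at 0 min, and 79.1 at 260 min against 248 at 240 min. In the opposite sense, 15 genes were lower at 20 min and higher at 260 min. Among them, YAT1, YAT2 and CRC1 belong to carnitine transport, BDH2, PYK2, FBP1 and STL1 to carbon metabolism and glycerol uptake, and GDH3 and PUT4 to nitrogen use. STL1, the glycerol carrier, had 36.8 RPKM at 20 min and 419.5 at 0 min, and 87.5 at 260 min against 38.1 at 240 min.

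Position along the chromosomes was compared for the 5476 genes matched to the annotation. In all, 272 genes lay within 30 kb of the first base of a chromosome or of the end of its last protein-coding gene. Of these, 11.0% were at least 2-fold higher and 27.2% lower, against 4.32% and 18.7% of the other 5204. Near-identical families sit there, so these genes are not independent measurements. Among 5015 neighbouring pairs of genes, 27 pairs were higher together, 239 lower together and 73 split. Over all genes, 4.80% were higher and 20.1% lower, so some pairs would be lower together without any link between neighbours. How many was not worked out. Divergent neighbours, which share the DNA between their starts, were both higher in 10 of 91 pairs with any higher gene (11.0%), against 6 of 106 convergent pairs (5.66%) and 11 of 221 tandem pairs (4.98%), which are small counts. They were both lower in 69 of 412 pairs with any lower gene (16.7%), against 59 of 440 convergent (13.4%) and 111 of 817 tandem pairs (13.6%). PAI3 and SIP18, 650 bases apart on chromosome XIII, and MAL11 and MAL12, 785 bases apart, were divergent pairs past 4-fold on the higher side.

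Some neighbours stood on opposite sides. ALD4 (chromosome XV, 1039840 to 1041399) and GDH1 end 278 bases apart and differed by 2.38 and -4.93. LYS2 and TKL2, 465 bases apart on chromosome II, differed by -3.10 and 3.38, and SPG4 and ILV2, 722 bases apart on chromosome XIII, by 2.85 and -2.23. The largest difference of all genes, 5.06, was that of YMR175W-A, an unnamed reading frame that lies 58 bases from SIP18, with 483 RPKM at 20 min and 13.5 at 0 min. Both are read in the same direction, so transcripts of SIP18 that run on into it cannot be told apart from its own. The sodium pumps ENA1, ENA2 and ENA5 were lower together (-3.93, -3.96 and -4.08), and as tandem near-identical copies they count as 1 measurement, with 2.91, 2.62 and 2.88 RPKM at 20 min against 58.6, 55.1 and 64.5 at 0 min.

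The filter had little part in the count of higher genes and somewhat more in that of lower genes. Asking also for a mean of 10 RPKM over the 0 and 20 min libraries left 5645 genes, 284 of them higher and 1067 lower. Without that added condition 287 were higher and 1199 lower. The genes just inside the filter used here were MND1, HXT16 and YHR218W, with means of 10.02 to 10.04 RPKM and differences of -0.77, -0.68 and -1.36. Just outside lay HFM1, ATF2 and DIT2, with differences of 0.63, -0.85 and 0.60. Of the 583 genes left out, 56 were at least 2-fold higher and 85 at least 2-fold lower at 20 min, on few reads.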

How the data were processed

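For the 12 RNA-seq libraries the authors deposited a signal for each gene, under the heading RKPM. The deposited values behave as base coverage per kilobase per 1000000 reads. Low values pile up at multiples of 50 bases, the apparent read length, so the signal was divided by 50 and is called RPKM. No source used here states this step. A second table, of fractions of each gene's maximum, was not used. Per the labels, RNA was made into libraries with an NEBNext Ultra kit, which does not mark the strand. The submitters' processing notes name Bowtie2 and build R64, and the counter is not given in the sources used here.

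Genes with a mean deposited value of at least 500 (10 RPKM) were kept. Differences are log2(RPKM + 1), and called means 2-fold. Of the 6562 genes, 5891 matched the R64 annotation by systematic name, and 157 genes kept overlap another gene. Read depth was estimated from whole-base steps of low values. With 1 library at each time no p-value was made. The calculation was run on simulated reads in which a small set of genes had known folds. That run checked only that those folds were recovered under median-ratio scaling, and it does not bear on the calls of this step. Named genes are the 15 highest and the 15 lowest with a symbol and no overlap that also passed under median-ratio scaling, up to 2 members per list with the largest difference in the list's main direction and 1 in the other, and ACT1, TDH3, CLN3, RNR1 and the histones. Other genes and the isozyme pairs were added after their values were seen. All members and lists were chosen with earlier results of these data known. Scripts ran in Python with pandas and numpy.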

Additional observations from a re-analysis of the deposited data

How the results depend on the processing

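Under median-ratio scaling, 497 genes were at least 2-fold higher and 632 lower, with a median of -0.028, and under quantile normalization 570 were lower with a median of 0.0076. The counts of higher and of lower genes and the median over all genes kept within 1.5 times, or within the SD of the quietest step, under the other 8 planned settings. These were pseudocounts of 0.1 and 5 RPKM, 4 other filters, unscaled values and overlapping genes left out. They did so also under 2 settings chosen after seeing the data, genes matched to the annotation only and library totals without the 10 most abundant genes of 20 min. Of 102 named genes past 2-fold, 91 stayed past it in the same direction under median-ratio scaling. The number was 86 under quantile normalization and 94 with a pseudocount of 5 RPKM, and none changed sign under any setting run. The highest and lowest named genes were required to pass under median-ratio scaling, so they could not be lost there. Most of the others were named for the largest differences of their lists. The choice of genes therefore favoured these counts, which do not show how a typical gene past 2-fold held. Of the 78 counts of higher and of lower genes in the lists, 29 moved by over 1.5 times under median-ratio scaling, 28 under quantile normalization, 10 with a pseudocount of 5 RPKM, 8 with the totals without those 10 genes, and at most 2 under each of the other settings. Of 39 lists, 8 changed the sign of their median between scalings: peroxins, autophagy, mitochondrial ribosomal proteins, mitochondrial import, G1 cyclins, fatty acid synthesis, mitosis and origin licensing. No paired analysis was possible because each time had 1 library. The lower depth at 20 min limits the genes near 3 RPKM there.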
